A study of Mus musculus with 16 samples.

Results

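The miR-29 family comprises mmu-miR-29a, mmu-miR-29b and mmu-miR-29c (miR-29a, miR-29b and miR-29c from here on), and these 3 miRNAs were selected by name from the 566 mouse miRNAs on the array. They were followed over 16 liver samples. All were from males of C3H/HeJ, a mouse strain prone to liver tumours. In the phenobarbital arm there were 7 Ctnnb1-mutated tumours and 3 control livers, and in the arm labelled H2O there were 3 Ha-ras-mutated tumours and 3 control livers, the latter called untreated controls for the lack of phenobarbital only. Ctnnb1 encodes beta-catenin, the effector of Wnt signalling, Ha-ras encodes a GTPase upstream of the MAP kinases, and phenobarbital is a liver tumour promoter.

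The series text gives a single injection of DEN (diethylnitrosamine, a liver carcinogen) of 10 or 90 µg/g at 2 or 6 weeks of age, and, from 2 weeks later, a diet with 0.05% phenobarbital or none over 28 to 36 weeks. The sample labels give 27 weeks of treatment instead, and in their protocol text the drinking water carried phenobarbital for 28 days. An age at arrival of 29 to 32 days is also given, the same for all samples. No source ties a DEN dose, an age at injection or a duration to a sample or says whether control livers had received DEN. Whether a group's samples are separate animals is not given either, so the p-values measure the spread between these samples, which may be technical. The tumours are bulk tissue: fewer cells of a type and less RNA per cell cannot be told apart.

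The miR-29 miRNAs repress many transcripts of the extracellular matrix, among them those of fibrillar collagens, fibrillin and elastin, and those of de novo DNA methyltransferases and of the survival factor Mcl1. In liver they are best known from fibrosis, in which activated hepatic stellate cells lose them while collagen synthesis increases. They have also been studied widely as candidate tumour suppressors in liver cancer. A miRNA finds its targets chiefly through its seed, bases 2 to 8 from the 5′ end, so members with the same seed can share targets.

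The mature sequences show what the members share and where the array must tell them apart. They were taken from RefSeq, where the 3 names matched the -3p strands (build GRCm38.p6), and are printed 5′ to 3′ with the seed in capitals.
miR-29a: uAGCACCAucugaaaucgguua
miR-29b: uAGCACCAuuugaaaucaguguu
miR-29c: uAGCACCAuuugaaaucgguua
All 3 carried the seed AGCACCA, and of 1679 mature mouse names in the table only these 3 did. Counted from the 5′ end, miR-29a and miR-29c differed by the single substitution C10U over 22 bases. From miR-29b to miR-29c there were 3 substitutions, A18G, G21U and U22A, and miR-29b had 23 bases against 22. The terminal stretch of miR-29b has been described as a nuclear import signal in human cells. With 1 base between miR-29a and miR-29c, how far each lent signal to the probes of the other was not tested.

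The genes lie in 2 clusters, so that the 3 miRNAs are not independent products. Mir29a (chr6:31062660-31062747, minus strand) and Mir29b-1 (chr6:31063023-31063093, minus strand) were 275 bases apart, and the RefSeq gene table placed no other gene over them. Mir29b-2 (chr1:195037040-195037120, plus strand) and Mir29c (chr1:195037547-195037634, plus strand) were 426 bases apart, both within the span of the long non-coding RNA gene A330023F24Rik. The hairpins of the 2 miR-29b genes are shown because both end in the same mature strand, here in capitals.
Mir29b-1: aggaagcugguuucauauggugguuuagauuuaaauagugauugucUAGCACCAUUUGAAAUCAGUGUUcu
Mir29b-2: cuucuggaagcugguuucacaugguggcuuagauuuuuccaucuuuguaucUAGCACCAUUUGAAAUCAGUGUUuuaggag
The array reads mature miR-29b as the sum of both clusters, miR-29a as a product of the cluster on chromosome 6 and miR-29c as a product of that on chromosome 1.

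All 3 members were measured well on every array. Each had 2 probes of 10 spots, and 100% of the spots kept were well above background in all 16 samples, with no saturated spot. The coefficient of variation between spots of a probe had a median of 5.5% and a range of 0.8% to 13.3%. Of all mouse miRNAs, 83 to 117 were detected on an array. Levels are given as log2 of the background-subtracted signal after each array was divided by the 75th percentile of its 117 commonly detected mouse probes, and a level of 1 miRNA cannot be set against that of another, because probes differ in brightness.

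The passenger strands, the other arm of each hairpin, were near background. miR-29a* and miR-29b* were detected on 0 of 16 arrays, and miR-29c* on 1, a Ha-ras tumour. The highest scaled signal of any passenger probe was 21.6, that of the miR-29c* probe detected in this tumour. It lay below the floor of 24.79, to which all lower signals were raised. The strands that carry the shared seed were the ones that could be compared.

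For miR-29a the phenobarbital controls had the highest levels, 9.68, 9.68 and 9.77, with a mean of 9.71 ± 0.05 (SD, n = 3). The untreated controls measured 9.28, 9.52 and 9.62 (9.47 ± 0.18, SD, n = 3). The 7 Ctnnb1 tumours ran from 9.02 over a median of 9.28 to 9.66 (9.33 ± 0.24, SD, n = 7), and the Ha-ras tumours were at 9.20, 9.22 and 9.46 (9.29 ± 0.14, SD, n = 3). The phenobarbital controls stood above all other samples, although the highest Ctnnb1 tumour came close to them, and the ranges of the remaining 3 groups overlapped.

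For miR-29b the order of the groups was different. Phenobarbital controls were again highest, at 9.06, 9.09 and 9.26 (9.14 ± 0.11, SD, n = 3), and the Ha-ras tumours followed at 8.94, 8.94 and 9.10 (9.0 ± 0.09, SD, n = 3). The Ctnnb1 tumours ran from 8.71 over a median of 8.91 to 9.34 (8.97 ± 0.19, SD, n = 7). The untreated controls were lowest, at 8.53, 8.77 and 8.88 (8.73 ± 0.18, SD, n = 3). Each group overlapped its neighbour in this order.

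For miR-29c the Ha-ras tumours were lowest, at 8.26, 8.63 and 8.79 (8.56 ± 0.28, SD, n = 3). The untreated controls were close together at 8.79, 8.79 and 8.82 (8.80 ± 0.02, SD, n = 3), and the phenobarbital controls were at 8.94, 9.04 and 9.05 (9.01 ± 0.06, SD, n = 3). The Ctnnb1 tumours covered the widest range, from 8.58 over a median of 8.96 to 9.36 (8.95 ± 0.27, SD, n = 7), and overlapped each other group. The Ha-ras tumours and the untreated controls parted, but only by a difference hidden by rounding to 2 decimals. Within groups the pooled SD was 0.19 for miR-29a, 0.17 for miR-29b and 0.22 for miR-29c, against a median of 0.24 over the 96 miRNAs tested.

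**Figure D1:**
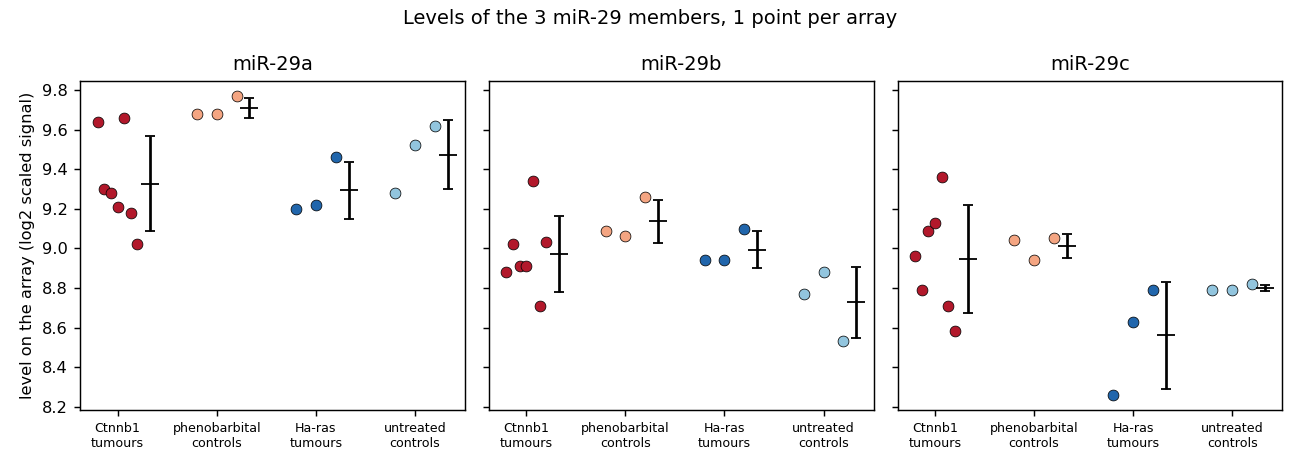
Levels of miR-29a, miR-29b and miR-29c (y axis, log2 scaled signal) in the 4 groups (x axis), with 1 point per array and the mean ± SD beside each group. Phenobarbital controls have the highest mean for each member (9.71, 9.14 and 9.01), while the lowest mean belongs to Ha-ras tumours for miR-29a and miR-29c and to untreated controls for miR-29b.

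Against their phenobarbital controls, the Ctnnb1 tumours had the largest difference of the 3 members in miR-29a, and 0 of 3 members passed the test. The difference in miR-29a was -0.38 on the log2 scale (SE 0.14, 95% interval -0.67 to -0.09), a level 1.30-fold lower, with 7 of 7 tumours below all controls. Its limma adjusted p over the 96 tested miRNAs was 0.0850 (unadjusted p = 0.0133). miR-29b was at -0.16 (interval -0.42 to 0.09, adjusted p = 0.433), with 6 of 7 tumours below all controls and 1 above, and miR-29c at -0.06 (interval -0.39 to 0.27, adjusted p = 0.822), with 3 tumours below and 3 above. Of all 96 miRNAs 8.33% were called in this comparison, 21.9% had an unadjusted p under 0.05, as 1 of the 3 members had, and 14.6% had groups that did not overlap, as 1 of the 3 members had.

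The call on miR-29a in this comparison depended on single tumours and on the handling of slides. Without Ctnnb1 tumour replicate 1 or replicate 5, the samples with the highest miR-29a among the tumours, the difference was -0.44 and passed (limma adjusted p = 0.0276 and 0.0337). It also passed with slide as a random block (-0.39, adjusted p = 0.0189), where the estimated correlation within a slide was negative (-0.115). No slide held a Ctnnb1 tumour and a phenobarbital control together, and with slide as a fixed block, which then compares them only through arrays of the other groups, the difference was -0.18 (adjusted p = 0.848). It was also smaller, and not called, with quantile scaling (-0.19) and with scaling by the median (-0.23).

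Among markers of stromal cells, 1 miRNA was called in the same comparison. The mesenchymal list (miR-199a-3p, miR-199a-5p, miR-214, miR-143 and miR-145), miRNAs typical of stellate cells and fibroblasts, had a summed log2 level of 7.05 to 7.39 in Ctnnb1 tumours and 7.70 to 7.76 in phenobarbital controls. Of its 5 members 2 were testable, and miR-199a-3p was lower (-1.16, SE 0.21, limma adjusted p = 0.00187), and was called under 3 of 4 scalings with values from -1.17 to -0.93. miR-143 was at -0.31 (adjusted p = 0.272). miR-199a-5p, miR-214 and miR-145 were detected on no array of either group, so that the sums hold little beyond the floor for them. The endothelial pair miR-126-3p and miR-126-5p summed to 9.10 to 9.62 in the tumours and 9.64 to 9.66 in the controls, with miR-126-3p at -0.28 (adjusted p = 0.154), and the hepatocyte list (miR-122, miR-192, miR-194 and miR-148a) to 13.40 to 14.36 and 14.15 to 14.39. Their part in the miR-29a difference was not tested.

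In Ha-ras tumours against untreated controls the members went different ways, and again 0 of 3 passed. miR-29b was at 0.27 (SE 0.14, 95% interval -0.03 to 0.57, limma adjusted p = 0.185), a level 1.21-fold higher, with 3 of 3 tumours above all controls. miR-29c was at -0.24 (SE 0.18, interval -0.63 to 0.14, adjusted p = 0.370), with 3 of 3 tumours below all controls. miR-29a was at -0.18 (SE 0.16, interval -0.53 to 0.16, adjusted p = 0.426), and 2 of 3 tumours lay below all controls. In this comparison 29.2% of the 96 miRNAs were called and 42.7% had groups that did not overlap, so that separated groups, found for 2 of 3 members, were common here. Calls were higher for 9.38% and lower for 19.8%, and 0 members had an unadjusted p under 0.05 where 35.4% of all did.

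Within slide 2, which held 2 of the Ha-ras tumours and 1 untreated control, miR-29b was at 0.26, miR-29c at -0.08 and miR-29a at 0.06. With all samples kept and slide as a fixed block, they were at 0.34, -0.07 and -0.01. The miR-29b value was thus of similar size in each of these, and those of miR-29a and miR-29c were near 0. Leaving out 1 array gave 0.17 to 0.35 for miR-29b, with the lowest value without untreated control replicate 3, and -0.28 to -0.11 for miR-29a, with the value nearest 0 again without that control. It gave -0.36 to -0.09 for miR-29c, with the value nearest 0 without Ha-ras tumour replicate 1 (limma adjusted p = 0.775). Here too the mesenchymal list was lower, with sums of 7.02 to 7.06 in the tumours and 7.36 to 7.98 in the controls. Of its 5 members, 4 were detected on no tumour array and 2 on no control array. The tumour sums thus hold little beyond the floor and miR-199a-3p. Both testable members were called, miR-199a-3p at -1.51 (limma adjusted p = 0.000509) and miR-143 at -0.68 (adjusted p = 0.0146). miR-143 was detected on 0 of 3 tumour arrays, so that its size depends on the floor. Each call held under 3 of 4 scalings, with values from -1.51 to -1.02 and from -0.68 to -0.51. The part of this list in the miR-29 values was not tested.

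The 2 tumour kinds differ in genotype and in phenobarbital together, and these cannot be told apart. Ctnnb1 minus Ha-ras tumours was 0.04 for miR-29a (95% interval -0.25 to 0.33) and -0.02 for miR-29b (interval -0.28 to 0.23). miR-29c had the largest difference, with a level 1.31-fold higher in Ctnnb1 tumours (0.39, SE 0.15, interval 0.06 to 0.72, limma adjusted p = 0.0724, unadjusted p = 0.0234), and 4 of 7 lay above all Ha-ras tumours. Thus 0 of 3 members passed, while 30.2% of all tested miRNAs were called (16.7% higher and 13.5% lower). An unadjusted p under 0.05 was found for 1 of 3 members and 38.5% of all, and 0 of 3 members had groups that did not overlap, against 18.8%. miR-29c passed without Ctnnb1 tumour replicate 7 (0.45, adjusted p = 0.0323) and when arrays were scaled by their median (0.49, adjusted p = 0.0462), and it turned to -0.16 with scaling over all mouse probes. Without Ha-ras tumour replicate 1, which had the lowest miR-29c of all samples, it was 0.24 (adjusted p = 0.371). Within slide 1, with 7 Ctnnb1 tumours and 1 Ha-ras tumour, that with the lowest miR-29c, it was at 0.69 (adjusted p = 0.219). The leukocyte list (miR-142-3p, miR-142-5p, miR-223, miR-150, miR-155 and miR-146a) summed to 8.39 to 9.18 in Ctnnb1 and 7.96 to 9.04 in Ha-ras tumours, and 1 of its 3 testable members was called, miR-223, a myeloid miRNA (0.82, adjusted p = 0.0188; called under 2 of 4 scalings). Its miR-150 and miR-155 were detected on no array of either group. The hepatocyte list summed to 13.40 to 14.36 in Ctnnb1 and 14.16 to 14.60 in Ha-ras tumours, with a median of -0.26 against 0.08 over all tested miRNAs. Of its 4 members 1 was called, miR-122, the main miRNA of hepatocytes (-0.59, limma adjusted p = 0.0407). That call held under 2 of 4 scalings, with values from -1.13 to -0.04. Of the others, miR-194 was at -0.51, miR-192 at -0.0036 and miR-148a at 0.17. The part of either list in the miR-29c value was not tested.

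Phenobarbital controls lay above untreated controls in each member, without overlap in 3 of 3, but 0 of 3 passed, and scaling over all mouse probes left differences of 0.04 and 0.00 for miR-29a and miR-29c. miR-29b was at 0.41 (SE 0.14, 95% interval 0.10 to 0.71), 1.33-fold higher, and had the smallest p of the 96 miRNAs (0.0119), yet its limma adjusted p was 0.559. miR-29a was at 0.24 (interval -0.11 to 0.58) and miR-29c at 0.21 (interval -0.18 to 0.59), both with an adjusted p of 0.654. Groups did not overlap for 25.0% of all tested miRNAs in this comparison, 0.0% were called by limma and 6 of 96 (6.25%) had an unadjusted p under 0.05, miR-29b among them. Slides 2 and 3 each held samples of both groups, and within them miR-29b was at 0.31 and 0.55, miR-29a at 0.40 and 0.20 and miR-29c at 0.19 and 0.24. The mesenchymal sums were 7.70 to 7.76 and 7.36 to 7.98 in these groups, and 0 of 2 testable members were called.

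Whether the tumour difference was itself unequal between the arms was tested as an interaction. For miR-29b the Ctnnb1 difference minus the Ha-ras difference was -0.43 (SE 0.19, 95% interval -0.83 to -0.03, limma adjusted p = 0.230, unadjusted p = 0.0350). It was -0.20 for miR-29a (adjusted p = 0.607) and 0.18 for miR-29c (adjusted p = 0.653). So 0 of 3 members passed, against 2.08% of all tested miRNAs, and 1 of 3 had an unadjusted p under 0.05, against 17.7%. These values share their samples with the comparisons above.

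**Figure D2:**
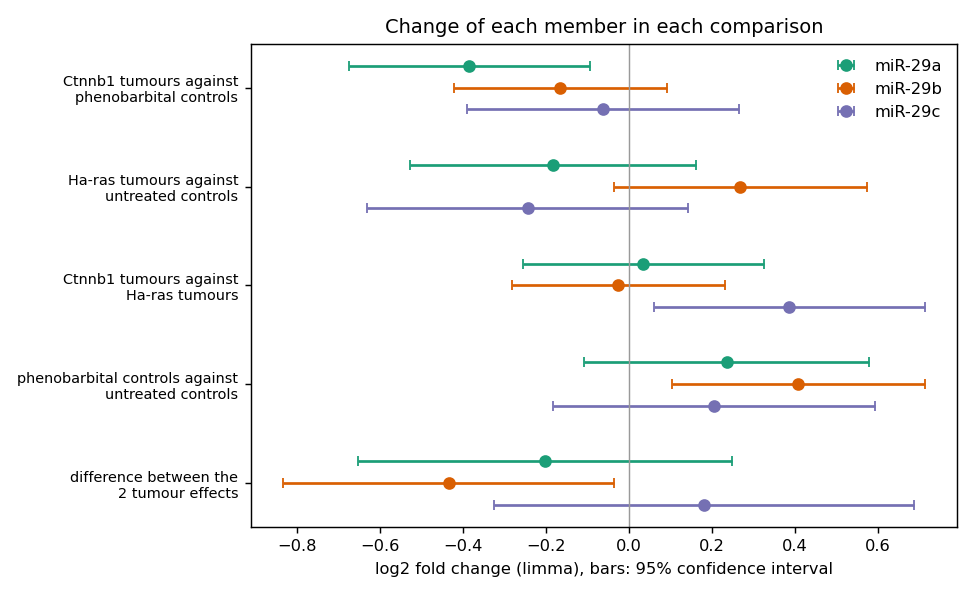
Log2 fold changes (x axis) of miR-29a, miR-29b and miR-29c in 4 comparisons and in the difference between the 2 tumour effects (y axis), from 1 limma fit of 16 arrays, with bars for 95% confidence intervals. The intervals of miR-29a in the first comparison, miR-29c between the tumours, and miR-29b between the controls and in the difference of effects leave out 0, but none of the 15 tests passed after adjustment.

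Because all levels of an array move together with its scaling, the balance between members was also compared within arrays. The difference between 2 members on 1 array does not change when the array is divided by 1 value, though quantile scaling can change it. A shift of this difference between groups shows unequal change of the probe signals. The 2 probes of miR-29a, which read 1 miRNA, also shifted against each other, by -0.20 in Ha-ras tumours against untreated controls. A shift between members therefore need not be an unequal change of the miRNAs themselves. The absolute size of the difference between members reflects probe brightness and is not read. In all, 12 such differences (3 pairs in 4 comparisons) were tested by exact two-sided permutation, and 0 passed after Benjamini-Hochberg adjustment, 1 of them with an unadjusted p under 0.05.

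Between Ha-ras tumours and untreated controls 2 of 3 pairs parted, both with miR-29b, and 0 of 3 passed. miR-29b minus miR-29a was -0.25, -0.27 and -0.35 in the Ha-ras tumours and -0.51, -0.64 and -1.09 in the untreated controls, a shift of 0.45 in which all 3 tumours stood above all controls. miR-29b minus miR-29c was 0.31, 0.31 and 0.69 in the tumours and -0.29, -0.03 and 0.09 in the controls, a shift of 0.51, again without overlap. Both had an exact permutation p of 0.10, the smallest that 3 against 3 allows (adjusted p = 0.24). Of all 4560 pairs of tested miRNAs, 46.4% parted in this comparison, so that separated pairs were common here. miR-29c minus miR-29a was -0.73 ± 0.19 (SD, n = 3) in the tumours and -0.67 ± 0.17 (n = 3) in the controls, a shift of -0.06 well within the spread.

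Between Ctnnb1 tumours and phenobarbital controls 0 of 3 pairs passed. No slide held samples of both groups, so a shift between these groups cannot be told apart from a difference between slides. miR-29c minus miR-29a ran from -0.68 over a median of -0.44 to -0.08 in the tumours and was -0.74, -0.72 and -0.65 in the phenobarbital controls, a shift of 0.32 (exact permutation p = 0.0333, adjusted p = 0.24), with 6 of 7 tumours above all controls. Ctnnb1 tumour replicate 1 was the exception, at -0.68. miR-29b minus miR-29a shifted by 0.22 (exact permutation p = 0.133, adjusted p = 0.267), with 6 of 7 tumours above all controls and replicate 1, at -0.76, below them. miR-29b minus miR-29c shifted by -0.10 (exact permutation p = 0.5). None of these pairs parted, where 12.9% of all pairs did.

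Between the tumour kinds 0 of 3 pairs passed and 0 of 3 parted. miR-29c minus miR-29a was higher by 0.35 in Ctnnb1 than in Ha-ras tumours (exact permutation p = 0.05, adjusted p = 0.24), with 6 of 7 above all Ha-ras tumours. miR-29b minus miR-29c was lower by -0.41 (exact permutation p = 0.0667, adjusted p = 0.24), with 6 of 7 below all of them, whereas miR-29b minus miR-29a shifted by -0.06 (exact permutation p = 0.617). Between the 2 kinds of control liver the 3 shifts were 0.17, -0.03 and 0.20, and the groups overlapped in each (exact permutation p = 0.4, 0.9 and 0.2). The shares of all pairs that parted were 23.1% between the tumours and 26.1% between the controls.

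**Figure D3:**
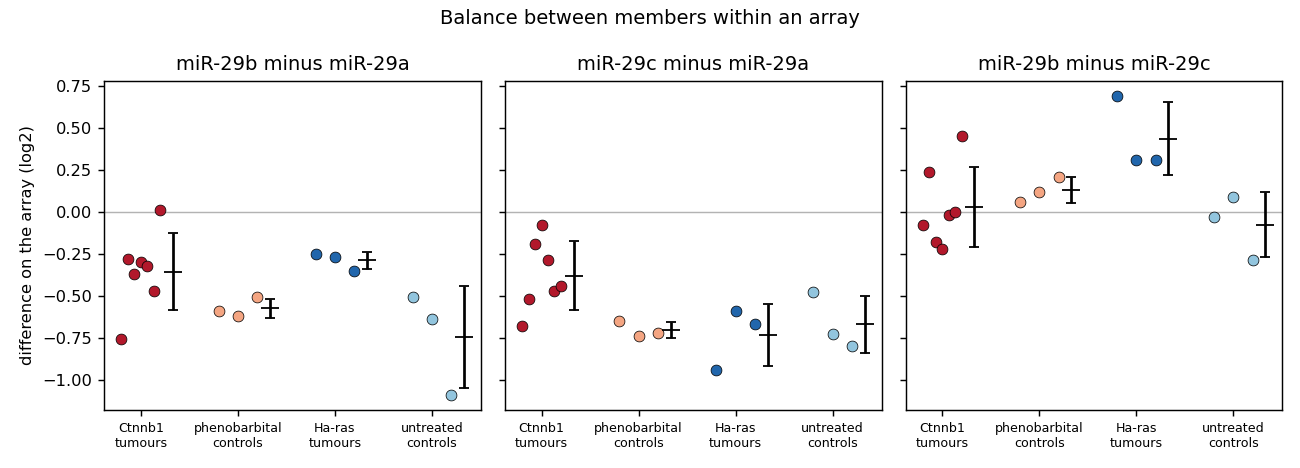
Difference between 2 members of the family on the same array (y axis, log2) in the 4 groups (x axis), with 1 point per array and the mean ± SD beside each group. In the first and the last panel the 3 Ha-ras tumours (means -0.29 and 0.44) stand above the 3 untreated controls (means -0.75 and -0.07), and in the middle panel 6 of 7 Ctnnb1 tumours stand above the phenobarbital controls (mean -0.70).

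The choice of scaling set the sign of several single-member values, since these differences are small. Dividing by the 75th percentile over all mouse probes, most of which carry no signal, moved the median of all 96 tested miRNAs in Ha-ras tumours against untreated controls from -0.06 to 0.28. Under it miR-29a, miR-29b and miR-29c stood at 0.39, 0.84 and 0.33 there, with miR-29b still the highest of the 3. In Ctnnb1 tumours against phenobarbital controls the same scaling put them at -0.16, 0.06 and 0.16, and the median of all moved from -0.05 to 0.10, with miR-29a still the lowest. Between the tumours it put them at -0.51, -0.57 and -0.16, where the median of all moved from 0.08 to -0.32. Between phenobarbital and untreated controls it put them at 0.04, 0.21 and 0.00, against 0.24, 0.41 and 0.21 before, and the median of all moved from 0.05 to -0.05.

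**Figure D4:**
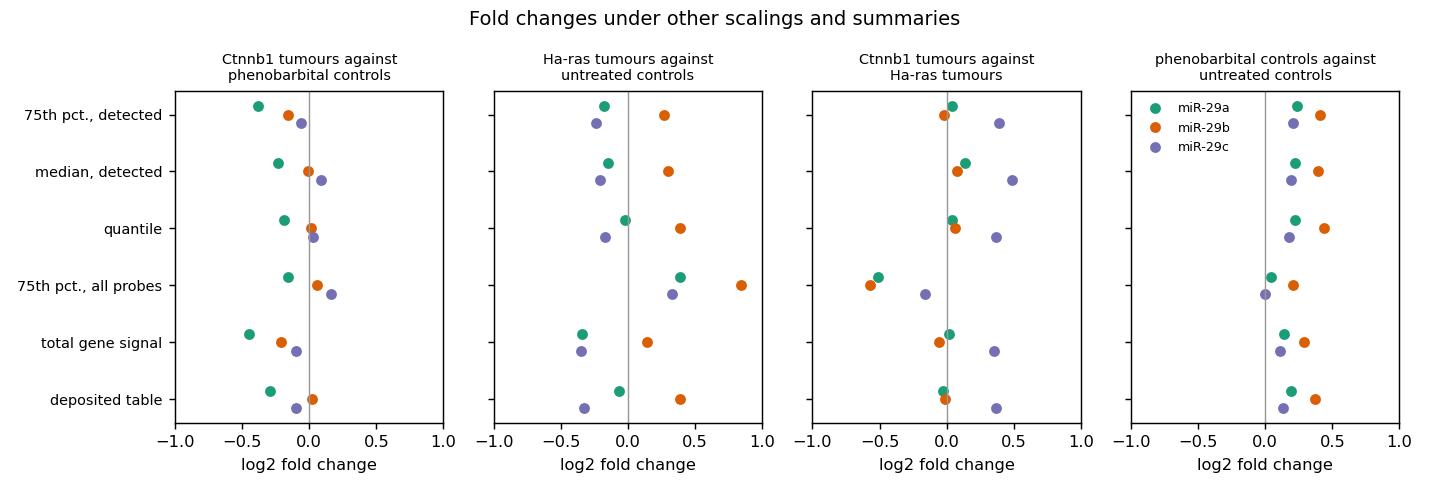
Log2 fold changes (x axis) of the 3 members in 4 comparisons under 6 ways of scaling or summarising the arrays (y axis), from the 75th percentile of commonly detected probes at the top to the deposited table at the bottom. Scaling over all mouse probes shifts the members together (Ha-ras tumours against untreated controls, 0.39, 0.84 and 0.33), and miR-29b stays the highest of the 3 there under each of the 6.

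The 2 probes of each member agreed on the sign in each of the tumour-control comparisons but not on the size. In Ctnnb1 tumours against phenobarbital controls the brighter miR-29a probe was at -0.44 and the dimmer at -0.32, and in Ha-ras tumours against untreated controls at -0.28 and -0.08. The miR-29b probes were at 0.23 and 0.31 in the Ha-ras comparison and the miR-29c probes at -0.28 and -0.21. The gap between the 2 probes does not change when an array is divided by 1 value. For miR-29a this gap was 1.47 to 1.51 in Ha-ras tumours, 1.42 to 1.67 in Ctnnb1 tumours and 1.63 to 1.73 in all controls. The Ha-ras tumours lay below all untreated controls in the gap of all 3 members, and the Ctnnb1 tumours below all phenobarbital controls in that of miR-29a, where the nearest samples of the groups differed only beyond the second decimal.

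For comparison, the gap was read in 47 pairs of commonly detected probes, both of the same miRNA. It parted Ha-ras tumours from untreated controls in 21.3%, with 19.1% narrower in the tumours. Ctnnb1 tumours were parted from phenobarbital controls in 17.0%, with all of these narrower in the tumours. It parted the tumour kinds in 0.0%. The gap of miR-29b also parted the control livers, being narrower in the phenobarbital controls by 0.05 (6.38% of the 47 were narrower there without overlap, and 23.4% parted either way). The shift in gap was 0.20 for miR-29a, 0.08 for miR-29b and 0.07 for miR-29c between untreated controls and Ha-ras tumours, so the size of the miR-29a difference depends on which probe is read.

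**Figure D5:**
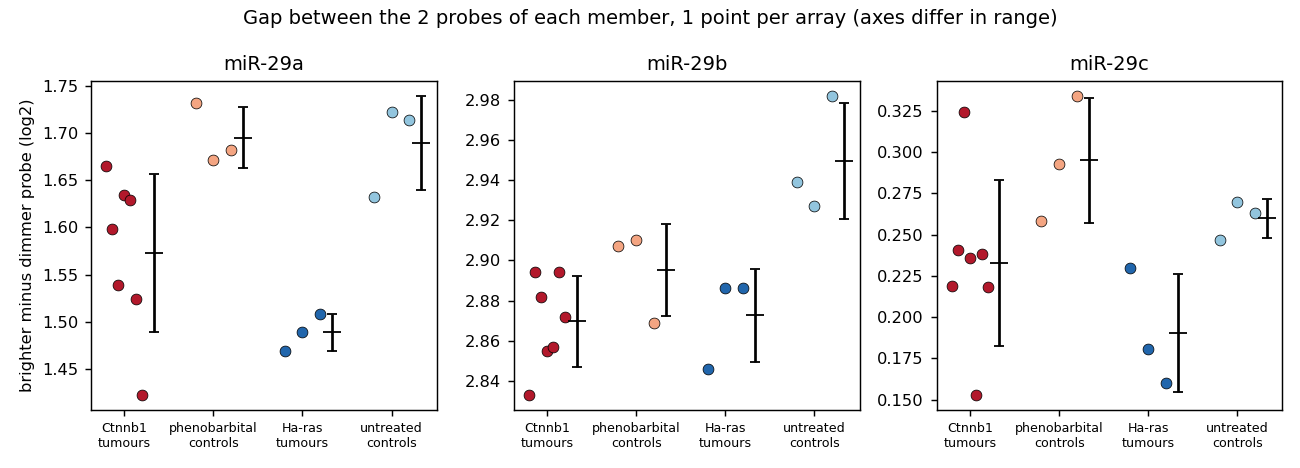
Gap between the brighter and the dimmer probe of miR-29a, miR-29b and miR-29c (y axis, log2, with a range of its own in each panel) in the 4 groups (x axis), with 1 point per array and the mean ± SD beside each group. The 3 Ha-ras tumours lie below the 3 untreated controls in each panel, with mean gaps of 1.49, 2.87 and 0.19 against 1.69, 2.95 and 0.26.

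The members followed each other only loosely over the 16 arrays. Pearson's r was 0.566 for miR-29c and miR-29a, 0.386 for miR-29b and miR-29c and 0.322 for miR-29b and miR-29a, and 0.642, 0.459 and 0.339 after the group means were subtracted. These are descriptions of levels that share each array's scaling. The pair that differs by 1 base, miR-29a and miR-29c, was the closest, and miR-29a and miR-29b, neighbours on chromosome 6, were the least close.

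Over all 16 arrays, the 3 miRNAs outside the family nearest to each member had an r above that of its relatives. This did not always hold after group means were subtracted. With Spearman's rank correlation it did not hold for miR-720 with miR-29b or for miR-15a with miR-29c. Being the highest of 93 by Pearson's r, the nearest miRNAs were bound to stand high, and how many others exceeded the relatives was not counted. Among 93 tested miRNAs outside the family, those nearest to miR-29a were miR-195 (r = 0.856) and miR-497 (0.854), which come from a single transcript, and miR-99a (0.812). After group means were subtracted these were 0.774, 0.717 and 0.933, each above the 0.642 of miR-29c. Nearest to miR-29b were miR-24 (0.735), of the miR-23-27-24 clusters, miR-33 (0.601), encoded within a gene of sterol regulation, and miR-720 (0.566), a name since assigned to a tRNA fragment. After group means these were 0.852, 0.708 and 0.432, the last below the 0.459 of miR-29c. Nearest to miR-29c were miR-22 (0.836), miR-15a (0.719) and miR-136 (0.689), the last from an imprinted cluster. After group means these were 0.754, 0.489 and 0.572, of which the latter 2 were below the 0.642 of miR-29a. The lists of nearest miRNAs had no name in common.

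These nearest miRNAs were chosen on the same 16 arrays, so their calls describe the company each member kept and are no separate evidence about it. miR-195 and miR-497 were lower in Ctnnb1 tumours than in phenobarbital controls (-0.78 and -0.63, limma adjusted p = 0.00158 and 0.0178), where miR-29a was at -0.38. miR-195 was also lower in Ha-ras tumours than in untreated controls (-0.47, adjusted p = 0.0366), and miR-24 was higher there (0.60, adjusted p = 0.0272), where miR-29b was at 0.27. Between the tumours the 3 nearest to miR-29c were higher in Ctnnb1 tumours, miR-136 by 1.23, miR-15a by 0.68 and miR-22 by 0.55 (limma adjusted p = 0.0281, 0.00164 and 0.0281), where miR-29c was at 0.39. Under 4 scalings the calls on miR-24 and miR-136 held in each, those on miR-15a, miR-22 and miR-195 in the Ctnnb1 tumours in 3, that on miR-497 in 2, and that on miR-195 in Ha-ras tumours in 1, with a value of 0.02 at the other end. miR-136 did not exceed the floor in any Ha-ras tumour, so that its size depends on the floor.

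A list of 12 miRNAs studied in fibrosis and matrix synthesis, the setting in which miR-29 is best known, had 6 testable members. It was chosen with earlier results of these data known, so its counts and medians are no separate evidence about fibrosis. The list shares miR-122 with the hepatocyte list and miR-199a-3p with the mesenchymal list. In Ctnnb1 tumours against phenobarbital controls 1 was called, miR-199a-3p, which was lower, and the median was -0.20 against -0.05 over all tested miRNAs. In Ha-ras tumours against untreated controls miR-21, a miRNA induced in fibrosis and by AP-1, rose by 1.28 (limma adjusted p = 0.00445) and miR-199a-3p fell, with a median of -0.08 against -0.06. Between the tumours miR-21, miR-30c and miR-122 were lower in Ctnnb1 tumours (-0.88, -0.59 and -0.59) and miR-19b was higher (0.62), so that 4 of 6 were called, against 30.2% of all tested miRNAs, with a median of -0.55 against 0.08. Of these calls between the tumours, that of miR-30c held under 4 of 4 scalings, those of miR-21 and miR-19b under 3 and that of miR-122 under 2, with values from -1.13 to -0.04. Between the kinds of control liver 0 of 6 were called. Another list, of miRNAs reported like miR-29 to repress DNA methyltransferases (miR-148a, miR-148b and miR-152), had 2 testable members and 0 called by limma in the 4 comparisons, with medians from -0.07 to 0.13.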

How the data were processed

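Each of the 16 samples had 1 one-colour array, for which 25 ng of RNA was labelled with pCp-Cy3, per the labels' protocols. The authors' scanner files hold spot intensity, made with Agilent Feature Extraction 10.7.3.1, per the file headers, and background-subtracted but not normalised between arrays. The deposited table, used as an alternative, holds log2 values of 146 mouse entries. R 2.14.1 is among the tools in the submitters' processing notes, how the table was normalised is not stated, and its 2336 values take only 156 distinct levels.

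Spots marked as outliers were dropped and the rest averaged per probe. Each array was scaled by the 75th percentile of the 117 mouse probes detected on all 16 arrays. Scaled signals below 24.79 (4.63 in log2 units) were set to that floor before log2 was taken, and probes of 1 miRNA were averaged. A probe counted as detected if a share above 0.5 of its spots exceeded background clearly. The percentiles before scaling were 386.2 to 1248.5, and the number of arrays limits the precision. A miRNA entered the tests where all arrays of some group detected it, which held for 96. They were fitted with limma (version 3.58.1, R 4.3.3) as 4 group means, with Benjamini-Hochberg adjustment over the 96 and a threshold of 0.05. On simulated data over 96 miRNAs, changes of 1 on the log2 scale were recovered in 88.5% of cases in the Ctnnb1 comparison and 80.2% in the Ha-ras comparison. False calls over all runs numbered 15 and 19. Every difference of a miR-29 member was smaller than 1, so these shares do not tell how often such differences would be called. Pairs of members were compared by exact permutation.

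The members and the lists were chosen with earlier results of these data known. The rule named the members, their passenger strands, the 3 tested miRNAs with the highest Pearson's r to each member, and the called members of the lists, which were markers of hepatocytes, mesenchyme, endothelium, leukocytes, erythroid cells and biliary epithelium, and the fibrosis and DNA methyltransferase lists. Of the erythroid list 0 of 2 testable members were called by limma in any comparison of groups, and of the biliary list 0 of 5 were testable. Alternatives were other scalings, probe summaries, background correction, filters, blocks for slide or replicate number, fits of fewer groups, and leaving out each array.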

Additional observations from a re-analysis of the deposited data

How the results depend on the processing

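No member passed the threshold in the fit as reported, and other settings changed signs more than calls. With scaling over all mouse probes, miR-29b and miR-29c turned to 0.06 and 0.16 in Ctnnb1 tumours against phenobarbital controls, miR-29a and miR-29c to 0.39 and 0.33 in Ha-ras tumours against untreated controls, miR-29a and miR-29c to -0.51 and -0.16 between the tumours, and miR-29c to -0.17 in the difference of the tumour effects. Quantile scaling turned miR-29b and miR-29c to 0.01 and 0.03 in the first comparison and miR-29b to 0.06 between the tumours. Scaling on the median of detected probes turned miR-29c to 0.09 in the first and miR-29b to 0.08 between the tumours, where miR-29c passed at 0.49. In the deposited values miR-29b was at 0.02 in the first and miR-29a at -0.03 between the tumours, miR-29b minus miR-29c was at 0.11 in the first and miR-29b minus miR-29a at 0.03 between the tumours. With the brightest probe miR-29c minus miR-29a was at 0.01 in the Ha-ras comparison. With slide as a fixed block miR-29c was at 0.41 in the first comparison and miR-29b at 0.03 between the tumours, within slide 1 miR-29b was at 0.03 there, within slide 2 miR-29a was at 0.06 in the Ha-ras comparison, and with slide as a random block miR-29a passed in the first at -0.39. The cause was not tested.

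With the replicate block miR-29c turned to 0.06 in the first comparison, and no member was called. Whether replicate numbers mark pairs is not given in the labels, and so few samples cannot settle it. Correlations of same-numbered deviations were 0.139, -0.195 and -0.626 in the phenobarbital arm and 0.58, -0.682 and -0.094 in the other. Of 6 samples, 1 correlated best with its own number.

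Leaving out 1 array gave -0.44 to -0.33 for miR-29a in the first comparison, and -0.02 to 0.12, -0.09 to 0.03 and 0.24 to 0.50 for miR-29a, miR-29b and miR-29c between the tumours. It gave -0.12 to 0.01 for miR-29b minus miR-29a between the tumours, and -0.13 to 0.04 and -0.10 to 0.06 for miR-29c minus miR-29a in the Ha-ras and the control comparison. Over all settings 25 of 327 single-member values turned sign and 5 passed, and 7 of 150 pair values turned sign with 0 passing.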
